A study of Rattus norvegicus with 6 samples.

Results

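Expression of 10 genes of the Hippo pathway and of the transcriptional programme it controls was followed in rat neonatal cardiomyocytes after siRNA against DYRK1A. The genes were Yap1, Tead1, Lats1, Lats2, Ctgf, Cyr61, Amotl1, Amotl2, Ajuba and Wwc1 (the members). They were found by their symbol in a table of 43035 features, of which 32883 were annotated genes and 10152 were unannotated rows, that is, transcripts that the authors added and that carry no gene symbol. Unannotated rows that overlapped one of the 10 genes on its strand were read together with it, and there were 5 of them. The cells were primary cardiomyocytes from the hearts of Sprague-Dawley rats at postnatal day 1, plated in medium with fetal bovine serum and transfected with scramble siRNA (si-NC) or with siRNA against DYRK1A (si-DYRK1A). RNA was collected 48 h later, from 3 biological replicates per group. Isolation rested on differential attachment, with no sort, so other heart cells could remain.

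The Hippo pathway is a kinase cascade that restrains growth. Its upstream kinases, encoded by Stk3 and Stk4, act with Sav1 to activate LATS1 and LATS2, which together with MOB1 phosphorylate the coactivator YAP and its relative TAZ (encoded by Wwtr1) and keep them out of the nucleus. Unphosphorylated YAP enters the nucleus and binds the TEAD transcription factors, and Ctgf and Cyr61 are among its best known target genes. In the heart, YAP is known for promoting proliferation of fetal and neonatal cardiomyocytes. The fly orthologue of DYRK1A is known to inhibit Warts, the fly orthologue of the LATS kinases.

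The core of the TEAD binding site is GGAATG, which reads CATTCC on the other strand. To show where it lies in these genes, the 250 bases before each transcription start were taken from RefSeq promoters of the rat assembly GRCr8, in which Ctgf and Cyr61 are named Ccn2 and Ccn1. Of the 10 genes, 8 were matched, and Tead1 and Lats2 were not. The promoters of the 3 genes whose annotated rows differed between the groups are given 5′ to 3′ on the strand of the gene, with each match to the core in capitals. That of Ctgf is chr1:22624615-22624864 (minus strand), that of Cyr61 is chr2:237225690-237225939 (minus strand) and that of Amotl2 is chr8:112182376-112182625 (plus strand).
Ctgf: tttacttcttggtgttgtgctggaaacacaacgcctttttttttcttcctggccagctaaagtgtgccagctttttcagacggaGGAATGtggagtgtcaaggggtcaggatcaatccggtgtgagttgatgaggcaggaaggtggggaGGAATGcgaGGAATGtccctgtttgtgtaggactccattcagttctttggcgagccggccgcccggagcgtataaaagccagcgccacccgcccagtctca
Cyr61: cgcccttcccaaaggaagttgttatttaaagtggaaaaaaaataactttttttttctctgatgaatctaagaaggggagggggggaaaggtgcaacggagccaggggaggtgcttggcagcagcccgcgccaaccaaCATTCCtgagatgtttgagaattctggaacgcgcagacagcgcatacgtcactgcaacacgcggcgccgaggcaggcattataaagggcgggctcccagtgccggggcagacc
Amotl2: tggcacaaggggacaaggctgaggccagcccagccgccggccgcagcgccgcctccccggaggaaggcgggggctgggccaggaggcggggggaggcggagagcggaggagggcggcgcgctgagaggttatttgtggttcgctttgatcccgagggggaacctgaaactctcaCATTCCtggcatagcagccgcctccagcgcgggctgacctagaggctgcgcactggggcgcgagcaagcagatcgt

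The promoter of Ctgf held 3 matches, with first bases 166, 101 and 92 bases before the start, whereas those of Cyr61 and Amotl2 held 1 each, 113 and 76 bases before it. Yap1 and Ajuba also had 1 match each, at 116 and 236 bases. No match lay in the windows of Lats1 and Wwc1 or in any of the 5 windows of Amotl1. Among all 33469 promoters of the same length, 12.1% held at least 1 match and 0.0807% held at least 3. A match describes letters in a window and is not a measured binding site.

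**Figure D1:**
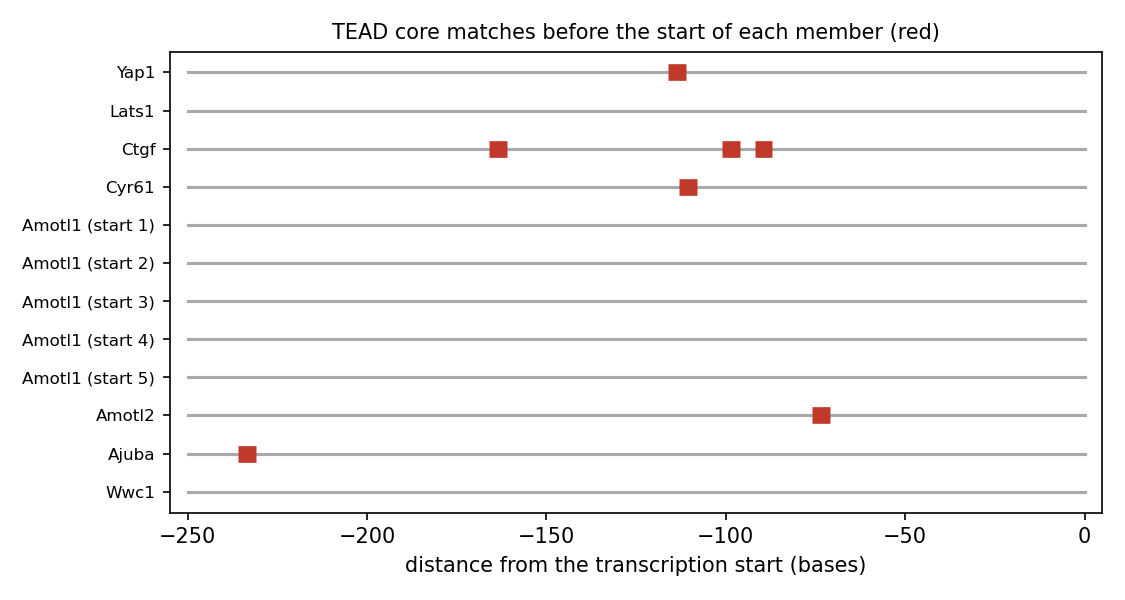
Position of each match to GGAATG or CATTCC (red squares) in the 250 bases before the RefSeq transcription start (x axis, bases from the start) for the 8 matched genes, with 1 line per start. Ctgf has 3 matches, 4 genes have 1, and the 5 starts of Amotl1 have none.

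Counts summed to between 10325074 and 11921772 in the si-NC libraries and between 10703229 and 11723974 in the si-DYRK1A libraries, and 15513 features were expressed enough to be tested. Differences were tested with edgeR (quasi-likelihood), p-values were adjusted over all these features by the Benjamini-Hochberg method, and a feature was called at an adjusted p below 0.05. Of all tested features, 15.2% were called, 8.03% higher and 7.19% lower in si-DYRK1A. The annotated row of Dyrk1a gave no check of the labels, since it held 0 to 3 counts per library. The unannotated row over Dyrk1a held 777 to 971 counts per library. It stood at 77.7 ± 3.22 CPM (SD, n = 3) in si-NC and 82.4 ± 2.70 CPM in si-DYRK1A. The edgeR log2 fold change was 0.08 (95% confidence interval −0.04 to 0.20) with an adjusted p of 0.374. Dyrk1a RNA was thus not lower in si-DYRK1A by this row. The paper assessed the knockdown on DYRK1A protein, by immunoblot. Since the RNA did not separate the groups in the direction of a knockdown, they are named by their labels. Cardiac RNA was abundant for Actc1 (cardiac actin), at 9976 ± 92.5 CPM in si-NC, and for Nppa (the natriuretic peptide of atrial and immature ventricular muscle), at 7557 ± 371 CPM. These had the highest levels among the annotated rows of 10 cardiomyocyte markers. Among the annotated rows of fibroblast markers in si-NC, levels also differed widely. Col1a1 stood at 14341 ± 1917 CPM and Col3a1 at 9002 ± 486 CPM, but Dcn at 6.82 ± 0.294 CPM and Postn at 6.54 ± 0.501 CPM. Of the cardiomyocyte markers, Tnnt2 stood at 11.2 ± 1.70 CPM in si-NC, and Ryr2 held 22 counts over all 6 libraries. Unannotated rows over Tnnt2 and Ryr2 held 67 and 49 counts in all. Tnni3, Myh6, Myh7 and Myl2 were listed at 0 in every library, and unannotated rows covered them. Those rows held 1287 counts in all over Tnni3 and 388 over Myl2. For Myh6 and Myh7, neighbours on the same strand, the same total of 8704 was found. It may be shared and is not assigned to either gene.

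Of the 10 annotated rows, 7 could be tested and 3 were called, Ctgf higher and Cyr61 and Amotl2 lower in si-DYRK1A. The other 3 annotated rows, Tead1, Lats1 and Lats2, were listed at 0 in every library, and unannotated rows cover all 3. Of the 5 unannotated rows, 3 could be tested, and 1 of them, over Tead1, was called higher. The called changes were between −0.25 and 0.29 on the log2 scale, and in each the groups did not overlap. Over all tested features, 15.2% were called and the median absolute log2 fold change was 0.18.

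Per length, the targets Ctgf and Cyr61 had the highest levels. In si-NC, the authors' FPKM was 684.6 ± 10.9 (SD, n = 3) for Ctgf, 422.6 ± 27.1 for Cyr61 and 138.9 ± 5.68 for Amotl2. Ajuba followed with 84.6 ± 0.959, Yap1 with 64.7 ± 2.86, the unannotated row of Tead1 with 29.0 ± 1.42 and the unannotated row of Amotl1 with 21.9 ± 0.674. These 7 did not overlap with their neighbours in that order. The lowest tested levels were those of Wwc1 (5.65 ± 0.75), the annotated row of Amotl1 (4.71 ± 0.421) and the unannotated row of Lats1 (0.397 ± 0.0477), and Wwc1 and Amotl1 overlapped in si-NC but not in si-DYRK1A. The unannotated rows of Yap1 and Lats2 lay below all of these. The order depends on the listed lengths, which were 24439 bases for the row of Tead1 and 1545 for Yap1. In CPM, the row of Tead1 (711.9 in si-NC) stood above Amotl2 (655.4), Ajuba (274.7) and Yap1 (100.6).

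Ctgf (connective tissue growth factor, a secreted matricellular protein, ENSRNOG00000015036, Rnor_6.0 chr1:21851660-21854773, minus strand) was the member with the largest rise. Its counts were 19231, 22036 and 22684 in si-NC replicates 1, 2 and 3 and 24943, 24692 and 26968 in the si-DYRK1A replicates. Scaled to library size with TMM factors (CPM), these were 1844, 1864 and 1897 against 2194, 2325 and 2334. Every si-DYRK1A library was above every si-NC library, and the gap between the groups was wider than the range within either. The mean rose by 22.3%, from 1868 ± 26.7 to 2284 ± 78.5 CPM, which is an edgeR log2 fold change of 0.29 (SE 0.0393, 95% confidence interval 0.21 to 0.37) with an adjusted p of 2.02e-05. The call held in all 17 other fits at the same threshold, but its size is below the stricter limit of 0.5 on the log2 scale that was also tried. Unannotated rows with no domain label on the opposite strand at Ctgf held at most 34 counts per library.

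Cyr61 (cysteine-rich angiogenic inducer 61, of the same protein family as Ctgf, ENSRNOG00000014350, chr2:251529354-251532312, minus strand) moved the other way. The counts were 8399, 10670 and 9845 in si-NC and 7703, 7668 and 8363 in si-DYRK1A, or 805.3, 902.3 and 823.2 against 677.5, 722.1 and 723.8 CPM. All 3 si-DYRK1A libraries were below the lowest si-NC library. Cyr61 fell by 16.1% in the mean, from 843.6 ± 51.6 to 707.8 ± 26.2 CPM, with an edgeR log2 fold change of −0.25 (SE 0.0464, 95% confidence interval −0.35 to −0.16) and an adjusted p of 0.000579.

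Since both genes were counted in the same libraries, their ratio does not depend on how the libraries are scaled. There were 2.29, 2.07 and 2.30 Ctgf counts per Cyr61 count in si-NC and 3.24, 3.22 and 3.22 in si-DYRK1A. The 3 si-DYRK1A ratios were nearly equal and all above the highest si-NC ratio. On the log2 scale the mean ratio was 1.15 ± 0.0887 (SD, n = 3) against 1.69 ± 0.00417, a difference of 0.54 with an exact two-sided permutation p of 0.1, the smallest that 3 libraries against 3 can give. This ratio was chosen after the values of both genes had been seen. Since Ctgf was higher and Cyr61 lower in every si-DYRK1A library, the ratio had to separate the groups, and its p adds no support.

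**Figure D2:**
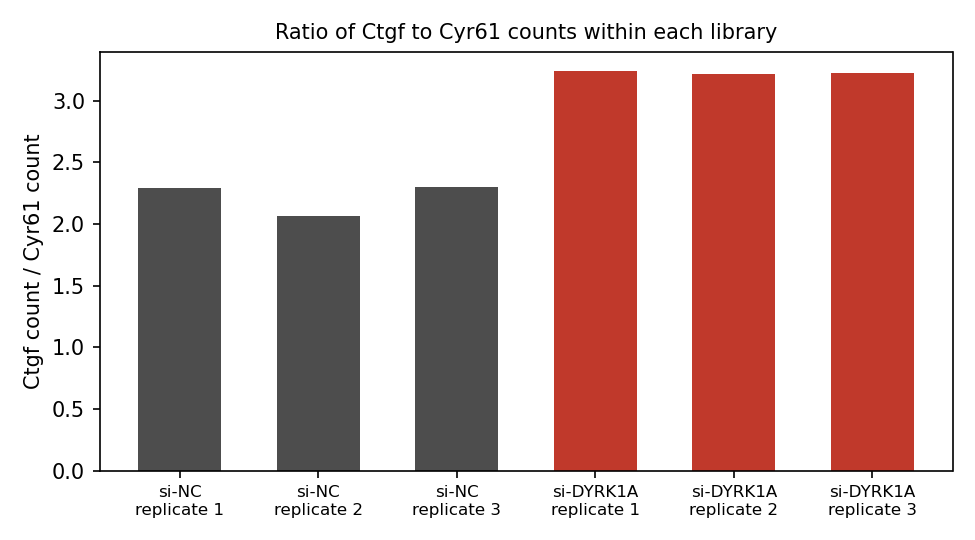
Count of Ctgf divided by count of Cyr61 (y axis, no unit) in each of the 6 libraries, with si-NC in grey and si-DYRK1A in red. The si-NC bars lie between 2.07 and 2.30 and the si-DYRK1A bars between 3.22 and 3.24.

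Amotl2 (angiomotin-like 2, a junctional scaffold that binds YAP and whose gene is itself a YAP target, ENSRNOG00000008487, chr8:111209908-111226226, plus strand) was called lower with the smallest change of the 3. It stood at 648.3, 683.5 and 634.4 CPM in si-NC and at 576.3, 588.7 and 620.4 CPM in si-DYRK1A. The groups did not overlap, but the highest si-DYRK1A library was close to the lowest si-NC library. The mean fell by 9.2%, from 655.4 ± 25.3 to 595.1 ± 22.7 CPM, with an edgeR log2 fold change of −0.14 (SE 0.0437, 95% confidence interval −0.23 to −0.05) and an adjusted p of 0.0335. The call was lost in 8 of 17 other fits at the same threshold, among them the fits without si-NC replicate 1 (edgeR adjusted p = 0.0789), si-NC replicate 2 (0.0993), si-DYRK1A replicate 1 (0.145) and si-DYRK1A replicate 2 (0.137), and its direction stayed negative in all 17.

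The relative Amotl1 (ENSRNOG00000008990, chr8:13042641-13109487, minus strand) was counted mainly through an unannotated row with an angiomotin C-terminal domain (chr8:13037271-13110315), which held 93.3% of the counts of both. That row stood at 174.4, 183.3 and 182.9 CPM in si-NC and at 174.9, 173.4 and 165.6 CPM in si-DYRK1A. The groups overlapped, and neither it (edgeR log2 fold change −0.07, SE 0.0466, adjusted p = 0.333) nor the annotated row (−0.25, SE 0.126, adjusted p = 0.215) was called. Summed, both rows gave 189.5, 197.0 and 195.5 CPM against 187.7, 184.5 and 176.6 CPM, with no overlap between the groups and an edgeR adjusted p of 0.240.

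**Figure D3:**
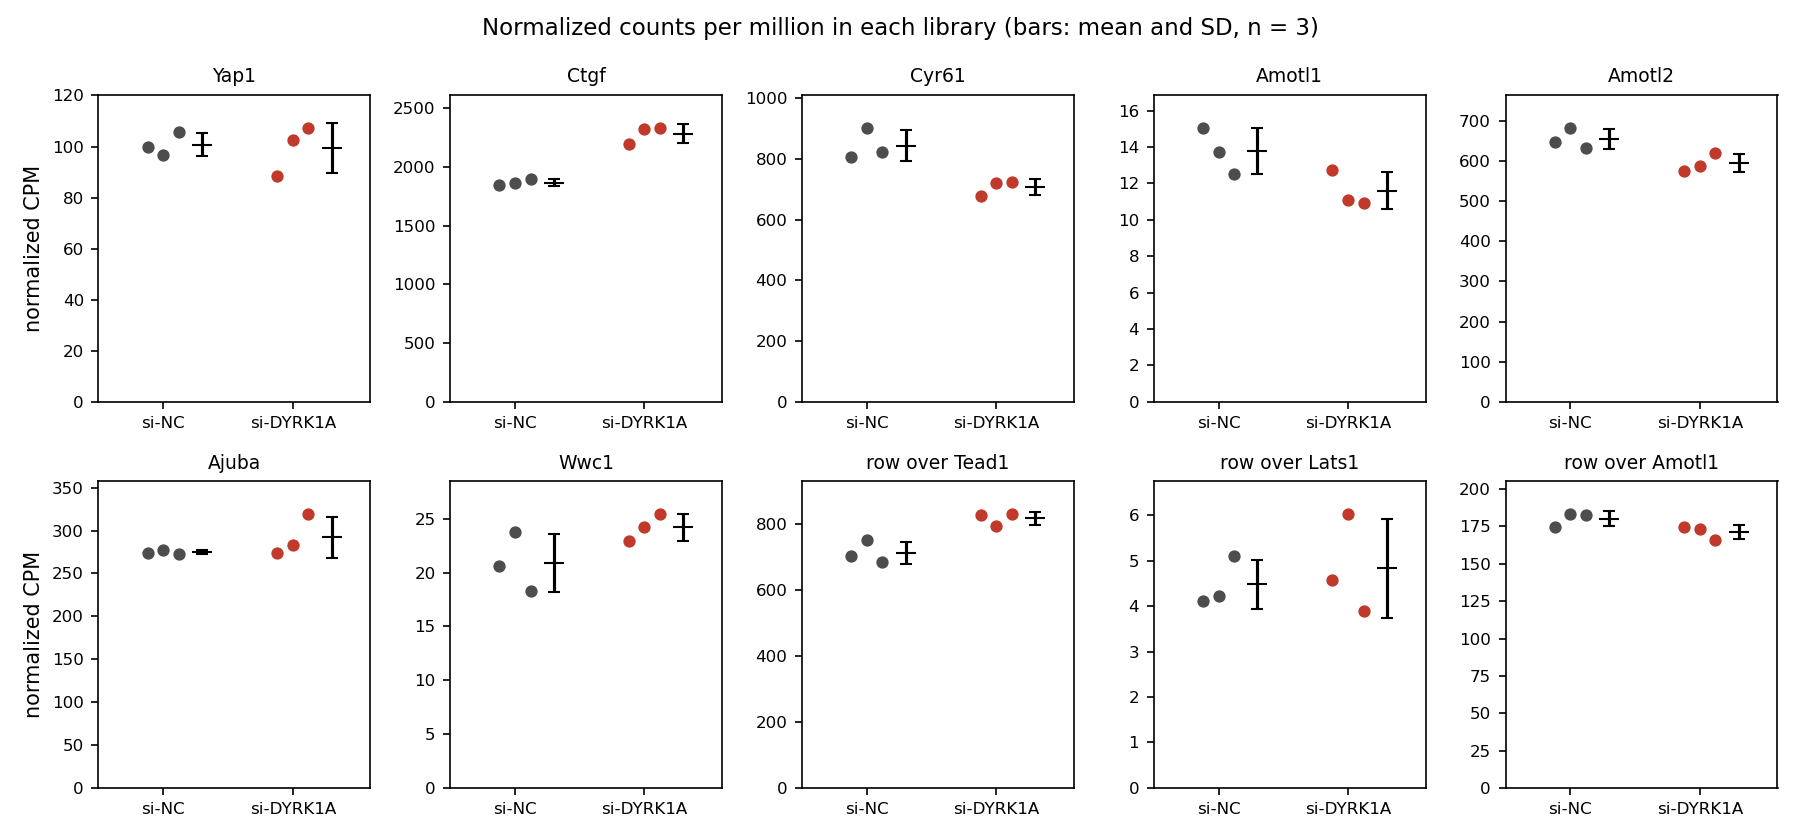
Normalized CPM (y axis, from 0, with its own scale per panel) of each tested row in the 3 si-NC (grey) and 3 si-DYRK1A (red) libraries, with replicates 1 to 3 from left to right and the mean and SD as a black bar. Ctgf and the unannotated row over Tead1 are higher, and Cyr61 and Amotl2 lower, in all 3 si-DYRK1A libraries.

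Among the transcriptional effectors, Tead1, which encodes the DNA-binding partner of YAP, was the only member called among those read through an unannotated row. Its row (chr1:177494912-177714831, plus strand) covered the whole of Tead1 (ENSRNOG00000015488, chr1:177495782-177707061), carried a TEA/ATTS domain label and also spanned a microRNA gene that held 5 counts in all. It stood at 702.0, 749.1 and 684.7 CPM in si-NC and at 825.6, 793.0 and 828.9 CPM in si-DYRK1A. All si-DYRK1A libraries were above all si-NC libraries. The mean rose by 14.6%, from 711.9 ± 33.3 to 815.8 ± 19.9 CPM, with an edgeR log2 fold change of 0.20 (SE 0.0430, 95% confidence interval 0.11 to 0.29) and an adjusted p of 0.00289. Under limma on FPKM the call was lost, with adjusted p-values of 0.0724 to 0.129.

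Yap1 (ENSRNOG00000005933, chr8:6135493-6203579, minus strand) stood at 99.8, 96.6 and 105.5 CPM in si-NC and at 88.5, 102.7 and 107.3 CPM in si-DYRK1A. The si-DYRK1A libraries spanned a wider range that enclosed the si-NC values. The edgeR log2 fold change was −0.02 (SE 0.0645, adjusted p = 0.907), and its 95% confidence interval of −0.15 to 0.12 bounds the changes that remain possible. The unannotated row over Yap1, with a WW domain, held at most 4 counts per library.

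The LATS kinases could hardly be measured. Lats1 (ENSRNOG00000014916, chr1:1784078-1817310, plus strand) was read through an unannotated row at chr1:1771710-1817310, which carried protein kinase and UBA domains and held 43, 50 and 61 counts in si-NC and 52, 64 and 45 in si-DYRK1A. The groups overlapped, with an edgeR log2 fold change of 0.10 (SE 0.212, 95% confidence interval −0.34 to 0.54, adjusted p = 0.812). Changes as large as those of Ctgf and Cyr61 were thus not detectable at the counts of this row. Why so few counts were listed for the LATS genes was not tested. The row over Lats2 (ENSRNOG00000056343, chr15:37943609-37983882, minus strand) held 3, 4 and 1 counts in si-NC and 6, 1 and 9 in si-DYRK1A and was too low to test.

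Neither Ajuba nor Wwc1, which act on LATS, was called. Ajuba (a LIM protein that restrains LATS, ENSRNOG00000012791, chr15:33208216-33218456, minus strand) stood at 274.3, 277.4 and 272.3 CPM in si-NC and at 274.2, 283.1 and 319.2 CPM in si-DYRK1A. Only si-DYRK1A replicate 3 stood apart from the rest, and the edgeR log2 fold change was 0.09 (SE 0.051, adjusted p = 0.275), or 0.02 without that library. Wwc1 (KIBRA, an upstream activator of LATS, ENSRNOG00000008065, chr10:20663541-20818128, minus strand) stood at 20.6, 23.8 and 18.3 CPM against 23.0, 24.2 and 25.4 CPM. The groups overlapped, and the edgeR log2 fold change was 0.21 (SE 0.103, 95% confidence interval −0.003 to 0.43, adjusted p = 0.190). This value was 0.12 without si-NC replicate 3 and 0.31 without si-NC replicate 2 (adjusted p = 0.0533).

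**Figure D4:**
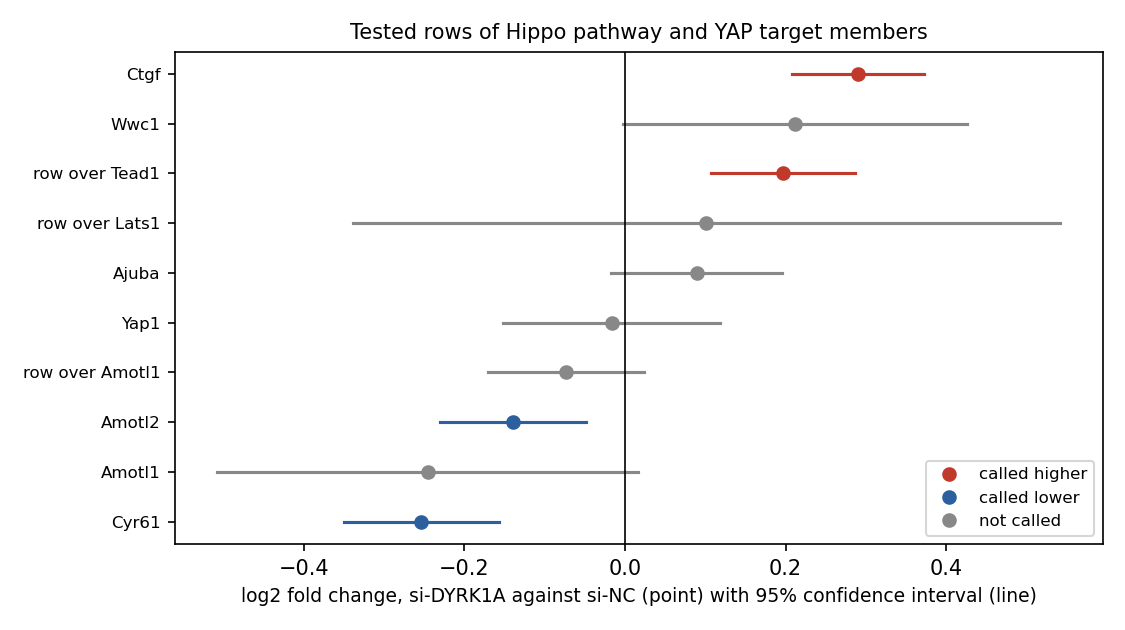
The edgeR log2 fold change of si-DYRK1A against si-NC (x axis, points) with its 95% confidence interval (lines) for the 10 tested rows of the members. Called rows are red (higher) or blue (lower), grey rows were not called, and the interval of the row over Lats1 is the widest.

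Of the 7 tested annotated rows, 3 had groups that did not overlap, which held for 31.5% of all tested features. An exact two-sided permutation test of the normalized CPM gave p = 0.1 for Ctgf, Cyr61, Amotl2 and the unannotated row over Tead1, the smallest p that 3 libraries against 3 allow.

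The wider pathway was described by a list of 38 Hippo genes, all present in the table, to which 8 of the members belong. Of these, 17 annotated rows could be tested, and 4 were called, 1 higher and 3 lower, beside 15.2% called over all tested features. Among the 17, 14 had a negative log2 fold change. The median of the 17 was −0.13, against 0.002 over all tested features. Fat4, an atypical cadherin upstream of the pathway, rose from 147.3 ± 8.43 to 173.4 ± 5.19 CPM (edgeR log2 fold change 0.24, SE 0.0507, adjusted p = 0.00248). Wwc2, a paralogue of Wwc1, fell from 373.5 ± 2.37 to 306.1 ± 9.31 CPM (edgeR log2 fold change −0.29, SE 0.0423, adjusted p = 5.49e-05). Strn, a scaffold of the STRIPAK phosphatase complex that opposes the upstream kinases, fell from 123.6 ± 0.902 to 106.6 ± 5.49 CPM (edgeR log2 fold change −0.21, SE 0.0515, adjusted p = 0.00634). Amotl2 was the other gene called lower. Without si-DYRK1A replicate 2 the list had 2 calls, and Strn was no longer called (edgeR adjusted p = 0.0645). The calls of Fat4 and, in the target list, of F3 were lost under limma on FPKM.

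The core components outside the members were not called. Wwtr1, which encodes TAZ, stood at 126.6, 140.2 and 121.0 CPM in si-NC and at 118.2, 110.8 and 126.0 CPM in si-DYRK1A, with overlapping groups (edgeR log2 fold change −0.13, adjusted p = 0.176). Without si-NC replicate 2 its log2 fold change was −0.07, and without si-DYRK1A replicate 2 it was −0.08. The upstream kinase genes Stk3 and Stk4 had edgeR log2 fold changes of −0.15 (adjusted p = 0.0964) and −0.09 (adjusted p = 0.335). Mob1a, the cofactor of LATS, had −0.13 (adjusted p = 0.0662). Reads shared with its close paralogue Mob1b may be split between them, which was not tested. Both Stk3 and Mob1a lay near the threshold. Stk3 was called lower without si-NC replicate 1 (edgeR adjusted p = 0.0495) and on library size only (0.0451). Mob1a was called lower without si-NC replicate 3 (edgeR adjusted p = 0.0428), without si-DYRK1A replicate 1 (0.0441), with no filter on low counts (0.0471) and on library size only (0.0243). On library size only, the list had 7 calls, 6 of them lower. Nf2 (Merlin) held 21 counts and Tead4 2 counts over all 6 libraries, and Sav1, Mob1b, Tead2 and Tead3 were listed at 0.

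In the list, 15 genes were listed at 0 in every library, and 26 were covered over at least 50% of their length by an unannotated row, including all 21 that could not be tested. Of 27 such unannotated rows, 18 were tested, of which 10 had a positive and 8 a negative log2 fold change with a median of 0.02, unlike the mostly negative annotated rows. Besides the row over Tead1, that over Map4k4, a kinase that also phosphorylates LATS, was called higher (43.2 ± 2.64 to 51.4 ± 1.63 CPM, edgeR adjusted p = 0.0207), and none was called lower. Over all tested features, 8.03% were called higher and 7.19% lower. Rows over Mob1b (190.9 ± 0.946 against 191.9 ± 7.46 CPM, edgeR adjusted p = 0.939), Sav1 (11.8 ± 1.15 against 12.5 ± 2.09 CPM, adjusted p = 0.781), Tead3 (27.5 ± 1.72 against 28.2 ± 0.903 CPM, adjusted p = 0.840) and Tead2 (2.11 ± 0.216 against 1.92 ± 0.470 CPM, adjusted p = 0.841) were not called. With these rows counted, which was added after the data had been seen, the list had 6 called genes, 3 higher and 3 lower.

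YAP target genes did not move in a single direction. Of a list of 22, 21 were in the table and 14 could be tested. Of these, 4 were called higher and 2 lower, while over all tested features 8.03% were called higher and 7.19% lower. A positive log2 fold change was seen in 7 and a negative one in 7, and the median was −0.006. Tgfb2, a growth factor of the TGF-beta family, had the largest change, at 222.0, 230.4 and 245.7 CPM in si-NC and 359.5, 334.8 and 338.0 CPM in si-DYRK1A, with no overlap (edgeR log2 fold change 0.56, SE 0.0477, adjusted p = 3.52e-08). Crim1, a transmembrane binder of BMPs, rose from 443.5 ± 34.8 to 552.6 ± 17.3 CPM (edgeR log2 fold change 0.32, adjusted p = 0.000182). F3, the tissue factor that starts coagulation, rose from 100.6 ± 6.30 to 119.6 ± 4.03 CPM (edgeR log2 fold change 0.25, adjusted p = 0.00303). Ctgf was the other gene called higher, and Cyr61 and Amotl2 were those called lower.

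Ankrd1, a cardiac ankyrin repeat protein and a widely used YAP target, stood at 4046, 4265 and 4160 CPM in si-NC and 4322, 4259 and 4174 CPM in si-DYRK1A. The groups overlapped, and the edgeR log2 fold change was 0.03 (SE 0.0377, 95% confidence interval −0.05 to 0.11, adjusted p = 0.635). Axl, a receptor tyrosine kinase, held 37 counts over all libraries and was not tested. Unannotated rows over target genes numbered 9, of which 6 were tested and 3 called, all higher, over Nt5e (edgeR adjusted p = 0.00111), Tgfb2 (0.000703) and Rbms3 (0.00377). The share called over all tested features was 15.2%. Counting a gene as called by either kind of row, 8 targets were called, 6 higher (Tgfb2 by both of its rows) and 2 lower, a count added after the data had been seen. The 6 tested unannotated rows had 4 positive and 2 negative log2 fold changes with a median of 0.16.

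**Figure D5:**
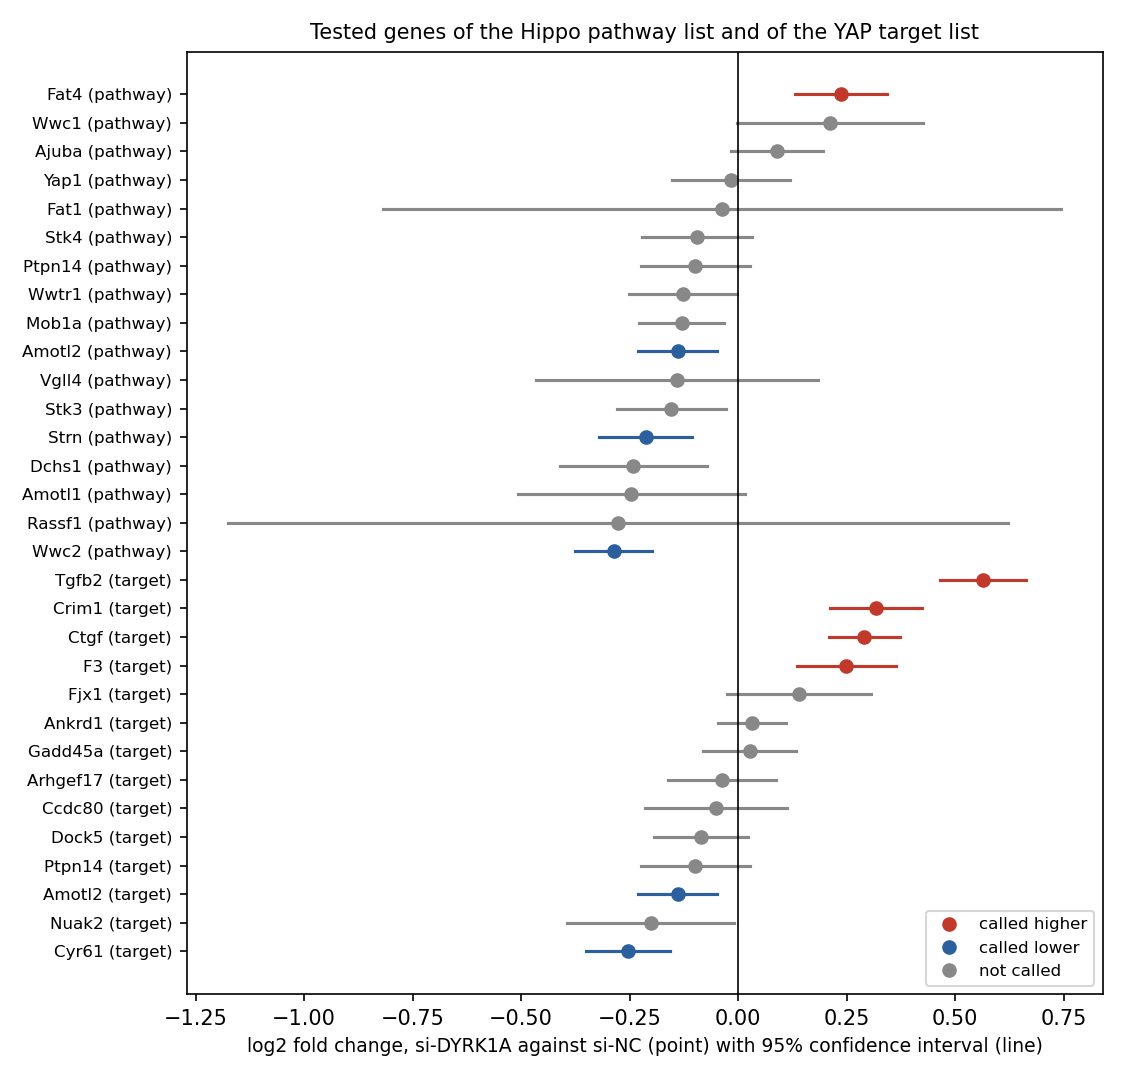
The edgeR log2 fold change of si-DYRK1A against si-NC (x axis, points) with its 95% confidence interval (lines) for the tested annotated genes of the Hippo list (17, upper block) and of the YAP target list (14, lower block). Called genes are red (higher) or blue (lower), and Amotl2 and Ptpn14 appear in both blocks because both lists hold them.

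Some markers of heart cell types also differed between the groups, and 15.2% of all tested features were called. Of the 10 cardiomyocyte markers, 5 could be tested and 3 (Nppa, Actn2 and Actc1) were called higher. Tnnt2 (edgeR log2 fold change −0.14, adjusted p = 0.595) and Tnnc1 (0.04, adjusted p = 0.592) were not called. The summed level of the 10, led by Actc1 and Nppa, was 20133 to 20840 CPM in si-NC and 23464 to 24302 CPM in si-DYRK1A. Of the 10 endothelial markers, 8 could be tested and 3 (Tek, Tie1 and Cdh5) were called lower, with sums of 188.6 to 208.8 CPM against 158.8 to 166.3 CPM, and Flt1 was listed at 0. Kdr (edgeR log2 fold change −0.01), Emcn (0.03), Esam (0.19), Vwf (−0.53) and Egfl7 (−0.54) were not called. Of the 10 fibroblast markers, 7 could be tested and 3 (Lum, Postn and Fbln1) were called higher, but the summed level, led by Col1a1, was 21739 to 26483 CPM in si-NC and 20646 to 21403 CPM in si-DYRK1A. Pdgfra was listed at 0, with 642 counts in all in unannotated rows over it. Macrophage markers had 2 of 8 tested genes higher (Lyz2 and Cd163), with sums of 280.9 to 297.5 CPM against 283.5 to 328.6 CPM and Cd68 at 0, and smooth muscle and pericyte markers had 0 of 3 tested genes called, with sums of 688.6 to 721.8 CPM against 710.0 to 729.1 CPM. The 7 untested smooth muscle and pericyte markers were covered by unannotated rows, so these values give a partial view. Their part in the changes of Ctgf, Cyr61, Amotl2 and Tead1 was not tested. In such bulk RNA, fewer cells of a type and less RNA per cell cannot be told apart.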

How the data were processed

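The libraries were grouped by their labels (si-NC and si-DYRK1A, replicates 1 to 3), and all 6 entered every comparison. The authors deposited raw counts per gene and FPKM, that is, counts divided by gene length and scaled per library. The study's methods give HISAT2 and Rnor_6.0, whereas the submitters' processing notes name Bowtie 0.12.2 and the mouse build mm8, and the identifiers and positions in the table are those of rat. The sources used here do not name the counting tool or annotation release or say whether strand was used, so reads of overlapping genes on opposite strands may not be told apart. The labels name a TruSeq kit and the methods a NEBNext kit.

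Counts were tested with edgeR 4.0.16 in R 4.3.3 (TMM normalization, robust quasi-likelihood fit, two-sided, Benjamini-Hochberg adjustment over all tested features, threshold 0.05) after filterByExpr with a minimum count of 10, scaled to library size, in 3 libraries and a minimum total of 15. CPM were computed with the TMM factors. Unannotated rows that cover at least 50% of a gene on its strand and no other gene were also summed with it. Alternatives were other normalizations, DESeq2 1.42.0, limma-voom and limma 3.58.1 on log2(FPKM + 1) or log2(FPKM + 0.1) for features with FPKM above 0.5 in at least 3 libraries, no or stricter filters, stricter thresholds, the replicate number as a block and each library left out in turn. Single values were compared with exact permutation tests. The code was tested on simulated data.

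Named were all members and their unannotated rows, up to 6 called genes per direction and list with the smallest p, the core genes Wwtr1, Tead2, Tead3, Tead4, Nf2, Stk3, Stk4, Sav1, Mob1a, Mob1b, Ankrd1 and Axl whatever their values, and, for each marker list, at most 2 genes with values, its called genes where there were 3 or fewer and defining markers listed at 0. Map4k4, Nt5e, Rbms3 and the cardiomyocyte markers Tnnt2, Ryr2 and Tnnc1 were named outside these rules, after their values had been seen. So were the levels of the fibroblast markers Col3a1, Dcn and Postn and the endothelial markers not called. The same holds for the counts given for rows over markers of cell types. The members and lists were chosen with earlier results of these data known. No pairing of the samples by replicate number was seen. Depth limits what low counts can show, and permutation p-values cannot go below 0.1.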

Additional observations from a re-analysis of the deposited data

How the results depend on the processing

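For 21 rows (the 10 tested rows of the members and 11 named genes of the lists), 355 alternative values were computed, of which 325 kept direction and side of the threshold, 21 lost a call, 6 gained one and 3 changed sign. No alternatives were run for the other rows named, such as those over Map4k4, Nt5e and Rbms3 and the markers. The sign changes were those of 2 rows near 0, Yap1 without si-NC replicate 3 (0.01) and without si-DYRK1A replicate 1 (0.06209), in a range of −0.0748 to 0.06209 over the left-out libraries, and the unannotated row over Lats1 without si-DYRK1A replicate 2 (−0.08466), in a range of −0.08466 to 0.2363. Among the other fits at the same threshold, Cyr61 lost its call only under limma on log2(FPKM + 1) without a filter (adjusted p = 0.0817). The cause was not tested. That fit left 1 called member, 0 called unannotated rows, 1 called gene of the Hippo list and 2 of the YAP target list, and over all features it called 591, against 2360 with edgeR, while the filtered FPKM fits called 1199 (pseudocount 1) and 1180 (pseudocount 0.1), both with 0 called unannotated rows and 2 called genes of the Hippo list. On library size only, the Hippo list had 7 calls, and the split over all features moved from 1245 higher and 1115 lower to 1063 higher and 1339 lower, with a median shift of −0.02. With each library left out, the Hippo list had 2 to 6 calls, with 2 without si-DYRK1A replicate 2, and all features had 1614 to 2210. Requiring a change of 0.5 or more on the log2 scale in either direction left 0 members, 0 unannotated rows, 0 summed loci, 0 genes of the Hippo list and 1 of the YAP target list. As summed counts, 3 members were called, and 4 when any overlap on the strand was joined, with Tead1 added.

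The replicate numbers gave correlations of deviations of 0.0631, −0.024 and −0.00698 between libraries with the same number. Between libraries with different numbers they ran from −0.0585 to 0.0655, so no pairing was seen. This check cannot exclude that libraries with the same number were prepared together. With the replicate number as a block, 2 members were called (1 higher, 1 lower, without Amotl2, adjusted p = 0.0616), 1 unannotated row, 2 summed loci, 3 genes of the Hippo list and 5 of the YAP target list, and 2269 of all features. Wwtr1 and the row over Lats1 were not called under any of their alternatives.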
